A study of Homo sapiens with 6 samples.

Results

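Siglecs and C-type lectin receptors are the lectins through which monocytes read sugars on their own and on foreign surfaces, and 10 of their genes were followed here after knockdown of NFIC in leukaemic monocytes. The genes were CD33, SIGLEC1, SIGLEC5, SIGLEC7, SIGLEC9, SIGLEC10, CLEC4A, CLEC5A, CLEC7A and CLEC12A. They were picked as a family by gene name, with earlier results of these data known, and are 10 of the 33981 genes in the count table. The cells were THP-1, a human acute myeloid leukaemia (AML) line of monocytic type. Lentivirus brought in an shRNA against NFIC, a transcription factor of the nuclear factor I family, or, as the labels have it, a scrambled shRNA. In the methods of the study the control is called a vector with GFP only, while its results and figure legends call it scrambled. Here it is named after the labels. Cells positive for GFP were sorted 4 days after infection, and their RNA was sequenced from 3 scrambled and 3 NFIC shRNA samples. Every sample therefore shares the THP-1 background, the viral infection and the GFP sort. The comparison rests on 1 cell line and 1 NFIC hairpin. Nothing in the labels says whether the 3 samples of a group came from separate cultures, so the p-values measure the spread between these samples, which may be technical.

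Siglecs bind sialic acid, the sugar that caps most glycans on human cells, and most of those on monocytes carry a tyrosine motif, the ITIM, that recruits phosphatases and dampens signalling. C-type lectin receptors bind other ligands, among them fungal glucans. Some carry such an inhibitory motif, and some signal through SYK, directly or through an adaptor such as DAP12. CD33 and CLEC12A are in addition surface antigens of AML blasts that antibodies have been directed against.

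Each sample held between 20369543 and 24809720 counts assigned to genes. Levels are given as CPM (counts scaled to library size, with TMM factors), and differences as log2 fold changes of NFIC shRNA over scrambled shRNA from edgeR's quasi-likelihood test, with p-values adjusted over the 19182 genes that passed the filter on low counts. NFIC itself gave 911, 1019 and 904 counts in control cells and 399, 518 and 493 after knockdown, a log2 fold change of -0.99 (SE 0.072, adjusted p = 3.73e-09) that left 50.2% of the control level. Most of the 8 monocytic markers fitted the label of the line, since SPI1, LYZ, CD68, FCGR1A, CSF1R, MPO and ITGAM had group means of 48.6 CPM or more. CD14 stood apart, at 7.16 CPM with scrambled and 11.2 CPM with NFIC shRNA. Summed over the 8 monocytic markers the level was 1328 to 1437 CPM with scrambled and 1526 to 1703 CPM with NFIC shRNA. That sum leans on LYZ, at 572 CPM with scrambled and 940 CPM with NFIC shRNA, and does not show a rise of the markers as a set. CD68 went from 261 to 130 CPM and CSF1R from 219 to 146 CPM. LYZ, CD14 and ITGAM were higher, and CD68, CSF1R and MPO were lower, though MPO was not called without scrambled replicate 2 or 3 or NFIC shRNA replicate 1 or 3. Among the markers of other blood cells, CD3E, MS4A1 and PPBP were not listed in the table and HBB had 0 counts in 5 of 6 samples. NKG7 was at 5.43 ± 0.136 CPM with scrambled and 2.08 ± 0.398 CPM with NFIC shRNA, and EPX at 1.59 ± 0.256 and 0.689 ± 0.153 CPM. The part of these marker shifts in the results that follow was not tested. In bulk RNA, fewer cells expressing a gene and less RNA per cell cannot be told apart.

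The receptors split between rises and falls. Of the 10 genes, 4 were higher and 4 lower with NFIC shRNA, and 2 did not pass the threshold of 0.05. Over all genes tested 29.6% were higher, 30.3% were lower and 59.9% moved in either direction, and the samples of the groups did not overlap in CPM for 65.2%. Against such a background the number of receptors called is not by itself a result about the family, and their values are given one by one. All 10 passed the filter, but SIGLEC9, CLEC4A and CLEC7A reached its cutoff of 0.447 CPM in fewer than 3 scrambled samples and entered through the NFIC shRNA samples, where they were higher. Their calls are given as values of low transcripts whose entry into the test leaned on the group where they were higher.

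**Figure D1:**
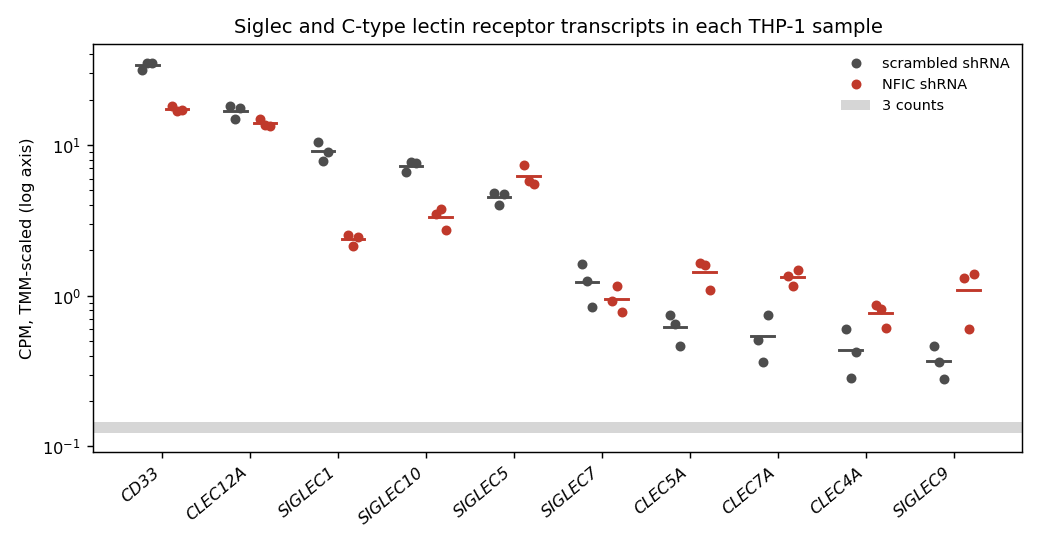
Level of each receptor transcript (CPM, log axis) in the 3 scrambled shRNA samples (grey) and the 3 NFIC shRNA samples (red). Points are samples, bars are group means, and the grey band is the range that 3 counts stand for in these libraries (0.122 to 0.146 CPM). CD33, SIGLEC1 and SIGLEC10 sit lower in red without overlap, and SIGLEC9, CLEC5A and CLEC7A sit higher.

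The stretch of 250 bases before the transcription start is shown for CD33, which fell, and for SIGLEC9 and CLEC5A, which rose, so that the proximal promoters of receptors that moved in opposite directions can be read side by side. The sequences are from RefSeq (GRCh38.p14), which matched 7 of the 10 genes. SIGLEC9 had 2 entries there, and the first was used. Capitals mark GAGGAA, a core motif of the myeloid factor PU.1, and TTGGC, the core motif that nuclear factor I proteins bind, each on either strand (TTCCTC and GCCAA on the other).
CD33, chr19:51224830-51225079, plus strand: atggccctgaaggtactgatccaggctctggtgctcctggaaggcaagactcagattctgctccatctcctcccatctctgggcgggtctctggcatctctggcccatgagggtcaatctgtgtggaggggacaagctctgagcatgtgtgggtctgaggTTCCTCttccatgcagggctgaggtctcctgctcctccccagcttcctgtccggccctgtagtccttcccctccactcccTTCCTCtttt
SIGLEC9, chr19:51124630-51124879, plus strand: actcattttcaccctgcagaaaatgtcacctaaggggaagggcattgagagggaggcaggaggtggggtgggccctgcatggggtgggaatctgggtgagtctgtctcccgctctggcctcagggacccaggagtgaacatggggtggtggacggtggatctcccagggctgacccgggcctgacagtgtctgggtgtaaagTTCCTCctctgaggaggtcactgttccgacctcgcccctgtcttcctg
CLEC5A, chr7:141946975-141947224, minus strand: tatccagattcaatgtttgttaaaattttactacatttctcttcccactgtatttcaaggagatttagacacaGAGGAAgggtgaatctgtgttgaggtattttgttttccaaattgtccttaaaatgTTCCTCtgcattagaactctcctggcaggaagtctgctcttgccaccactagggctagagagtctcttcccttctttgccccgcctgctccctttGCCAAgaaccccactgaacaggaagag
CD33 held 2 PU.1 motifs, SIGLEC9 1 and CLEC5A 2, where 23.6% of 35116 promoter windows of the same length held any. The NFI motif was found in 1 of these, CLEC5A, 27 bases before the start, and in SIGLEC10, 17 bases before it, against 40.8% of all windows. The 30 bases around the SIGLEC10 match show how close it lies to the start.
SIGLEC10, chr19:51417643-51417672, minus strand: ggcttccccttctGCCAAgagccctgagcc
The windows of SIGLEC5, SIGLEC7 and CLEC12A held no NFI motif, and SIGLEC7 and CLEC12A held 1 PU.1 motif each. Those of SIGLEC10, which fell, and of SIGLEC5 held 0 PU.1 motifs. The SIGLEC5 window (chr19:51630402-51630651) is not the one before the entry counted as SIGLEC5, which spans chr19:51630101-51645545 and holds the window. It lies directly before the gene listed as AC018755.2 (chr19:51610960-51630401), taken up below. The C/EBP element TTGCNNAA, present in 9.05% of windows, was in none of the 7. CLEC5A, which rose, and SIGLEC10, which fell, are thus the receptors with an NFI motif in the window. In GENCODE v44 both genes begin further upstream than in RefSeq, at 51417803 of chromosome 19 for SIGLEC10 and 141947007 of chromosome 7 for CLEC5A. Both NFI matches thus lie inside the genes as annotated there. CD33, SIGLEC7 and CLEC12A begin further upstream there as well, at 51225064 and 51142299 of chromosome 19 and 9951316 of chromosome 12. The PU.1 matches of SIGLEC7 and CLEC12A and the CD33 match nearest the start thus also lie inside the genes. A match of so few letters is a description of the sequence and does not show a bound site.

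Among the Siglecs with an ITIM, CD33 and SIGLEC10 fell and SIGLEC9 and the gene listed as SIGLEC5 rose. CD33 (Siglec-3, chr19:51225064-51243860 in GRCh38, GENCODE v44) had the most counts of the receptors in control cells, at 679, 858 and 756, and 374, 388 and 397 after knockdown. This was 33.9 ± 2.14 CPM against 17.4 ± 0.722 CPM (SD, n = 3), and the groups did not overlap. The log2 fold change was -0.97 (SE 0.078, adjusted p = 1.28e-08). A nearby pseudogene of the family, SIGLEC22P, from which reads could be split with CD33, also fell, by 0.89 on the log2 scale (adjusted p = 0.00138), and CD33 summed with it gave -0.96.

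SIGLEC10 (chr19:51410020-51417803), an inhibitory receptor for CD24, had 143, 190 and 163 counts with scrambled and 72, 87 and 63 with NFIC shRNA. Its level was 7.31 ± 0.612 CPM against 3.32 ± 0.530 CPM, without overlap. The log2 fold change was -1.14 (SE 0.15, adjusted p = 4.71e-06). The antisense transcripts AC008750.2 and AC008750.1 lie opposite 16.2% and 6.43% of its exon bases and fell as well, with log2 fold changes of -0.98 (adjusted p = 4.73e-04) and -0.88 (adjusted p = 0.0143). Whether the counting used strand is not given in the sources used here, so reads of the opposing genes cannot be told apart.

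SIGLEC9 (chr19:51124906-51136651), an inhibitory receptor of monocytes and neutrophils, was a low transcript with 10, 9 and 6 counts in scrambled and 27, 14 and 32 in NFIC shRNA samples. The level went from 0.369 ± 0.0911 to 1.10 ± 0.432 CPM. All 3 NFIC shRNA samples lay above all 3 scrambled samples, though NFIC shRNA replicate 2, at 0.603 CPM, stood well below the other NFIC samples. The log2 fold change of 1.55 (SE 0.39, adjusted p = 0.00257) rests on a gene that entered the test through the NFIC shRNA samples. The interval of 0.72 to 2.38 around it shows how little such counts fix the size.

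The gene listed as SIGLEC5 (chr19:51630101-51645545) had 104, 99 and 101 counts with scrambled and 153, 134 and 128 with NFIC shRNA. Its level was 4.52 ± 0.430 against 6.25 ± 1.02 CPM, without overlap, and the log2 fold change was 0.47 (SE 0.15, adjusted p = 0.0130). The call was lost without scrambled replicate 2 (0.38, adjusted p = 0.0589) and without NFIC shRNA replicate 1 (0.33, adjusted p = 0.0912). In the count table this entry is a protein-coding gene of 2360 bases. GENCODE v44, a later annotation than the one counted, gives the same identifier as a noncoding gene of 553 exon bases, and gives the coding SIGLEC5 gene under the identifier that the table lists as AC018755.2. By that later model AC018755.2 shares 39.6% of the exon bases of the first. The share in the model that was counted is not known here. AC018755.2 had 76, 71 and 76 counts with scrambled and 110, 97 and 79 with NFIC shRNA (log2 fold change 0.38, adjusted p = 0.0802), with overlap between groups. SIGLEC14, the activating partner of Siglec-5 that signals through DAP12, shares 12.5% of them in the later model and rose from 6.05 ± 0.270 to 11.4 ± 1.49 CPM (0.91, SE 0.12, adjusted p = 4.81e-06). Summed over the 3 entries the log2 fold change was 0.66 (adjusted p = 3.45e-05). SIGLEC14, a separate gene, held the most counts in that sum, with 123 to 154 in scrambled and 240 to 271 in NFIC shRNA samples. The entry named SIGLEC5 in the table thus passed the test, as did the sum that includes SIGLEC14, and AC018755.2 alone did not.

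SIGLEC7 (chr19:51142299-51153526), an inhibitory receptor best known from natural killer cells, had 35, 31 and 18 counts with scrambled and 19, 27 and 18 with NFIC shRNA. The groups overlapped, and the log2 fold change of -0.37 did not pass the test (95% interval -1.01 to 0.26, adjusted p = 0.296). An antisense gene, AC063977.6, lies opposite 27.5% of its exon bases. At this depth a fall of the size seen for CD33 lies inside the interval.

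SIGLEC1 (sialoadhesin, CD169, chr20:3686970-3712600), which lacks an ITIM and serves in adhesion and capture of sialylated particles by macrophages, had the largest fall. Its counts were 227, 193 and 194 with scrambled and 52, 50 and 57 with NFIC shRNA. The level dropped from 9.13 ± 1.33 to 2.38 ± 0.199 CPM without overlap, a log2 fold change of -1.94 (SE 0.16, adjusted p = 1.22e-08) that was larger in size than that of 98.2% of all genes tested. SIGLEC1 lies outside the chromosome 19 cluster and none of its exon bases are shared with another annotated gene.

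CLEC7A and CLEC5A, the activating C-type lectin receptors among the 10, were both called higher, each at low counts. CLEC7A (dectin-1, chr12:10116777-10130258), the receptor for fungal beta-glucan, had 11, 9 and 16 counts with scrambled and 28, 27 and 34 with NFIC shRNA. The level was 0.541 ± 0.193 against 1.33 ± 0.157 CPM, and the groups did not overlap. The log2 fold change was 1.31 (SE 0.32, adjusted p = 0.00183).

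CLEC5A (MDL-1, chr7:141927357-141947007), which signals through DAP12, had 16, 16 and 10 counts with scrambled and 34, 37 and 25 with NFIC shRNA. The level was 0.619 ± 0.139 against 1.44 ± 0.312 CPM, again without overlap, and the log2 fold change was 1.21 (SE 0.30, adjusted p = 0.00241). CLEC5A lies within MGAM, a maltase-glucoamylase gene on the opposite strand, which shares 12.01% of its exon bases. MGAM had 7, 3 and 5 counts with scrambled and 39, 28 and 35 with NFIC shRNA, a log2 fold change of 2.75 (SE 0.38). It reached the filter cutoff in 0 scrambled and 3 NFIC shRNA samples, so it entered the test through the group where it was higher. The part of MGAM reads in the CLEC5A value was not tested.

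The C-type lectin receptors with an ITIM, CLEC12A and CLEC4A, gave weaker results. CLEC12A (CLL-1, chr12:9951316-9995694), a surface antigen of AML blasts, had 395, 367 and 376 counts with scrambled and 309, 317 and 311 with NFIC shRNA. The level was 16.9 ± 1.77 against 14.04 ± 0.825 CPM, and NFIC shRNA replicate 1 overlapped with scrambled replicate 2. The log2 fold change of -0.27 (SE 0.097, adjusted p = 0.0248) passed the test but did not do so with DESeq2 (-0.25, adjusted p = 0.0815). It also failed without scrambled replicate 1 (adjusted p = 0.110), scrambled replicate 3 (0.0844), NFIC shRNA replicate 2 (0.0666) or NFIC shRNA replicate 3 (0.0629).

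CLEC4A (DCIR, chr12:8123617-8138607), an inhibitory receptor of dendritic cells and monocytes, had 13, 7 and 9 counts with scrambled and 18, 19 and 14 with NFIC shRNA. The samples did not overlap in CPM, but the log2 fold change of 0.82 (95% interval 0.027 to 1.61) did not pass the adjusted threshold (adjusted p = 0.0693), except without scrambled replicate 1 (1.11, adjusted p = 0.0443). AC006511.6, a noncoding gene on the same strand, shares 68.9% of its exon bases and was higher (0.47, adjusted p = 0.00643). Summed with it, CLEC4A gave 0.51 (adjusted p = 0.00320), a value set mostly by AC006511.6, which held 99 to 113 counts with scrambled and 145 to 155 with NFIC shRNA.

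**Figure D2:**
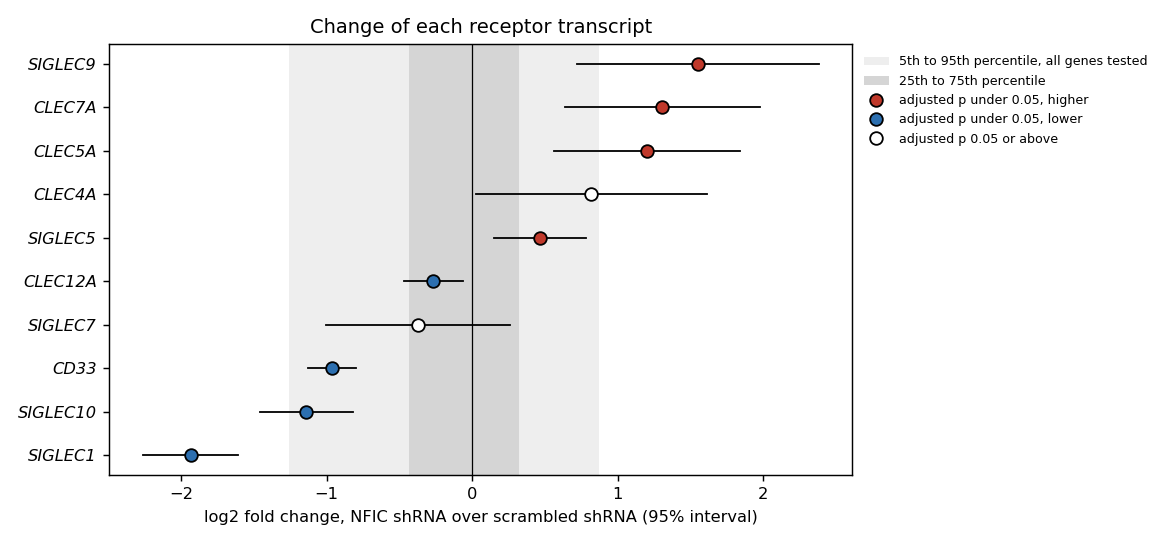
Log2 fold change of each receptor transcript (NFIC over scrambled shRNA) with its 95% interval. Red and blue points passed an adjusted p of 0.05, white points did not, and shading is the range of all genes tested (5th to 95th percentile -1.26 to 0.87, 25th to 75th percentile -0.44 to 0.33). SIGLEC1, at -1.94, lies below the wider range, and SIGLEC9, CLEC7A and CLEC5A, at 1.55, 1.31 and 1.21, lie above it.

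Levels per transcript length, from the deposited FPKM, placed the receptors in an order in control cells. CD33 (5.60 ± 0.370 FPKM) and CLEC12A (5.13 ± 0.532 FPKM) led and their samples overlapped. SIGLEC10 (1.97 FPKM) and SIGLEC5 (1.89 FPKM) followed, also overlapping, then SIGLEC1 (1.14 FPKM) and SIGLEC7 (0.599 FPKM), which did not overlap with each other. CLEC4A (0.335 FPKM) overlapped with SIGLEC7, and CLEC5A, SIGLEC9 and CLEC7A, at 0.148, 0.144 and 0.127 FPKM, overlapped with one another at the bottom. After NFIC knockdown CLEC12A led with 4.31 ± 0.230 FPKM, above CD33 at 2.90 ± 0.113 FPKM without overlap, and SIGLEC1, above SIGLEC7 in control cells, was at 0.302 FPKM, where its samples overlapped with those of CLEC7A, CLEC5A and SIGLEC9. The mean level of the highest receptor was 43.9 times that of the lowest in control cells and 14.3 times after knockdown.

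The Siglec genes of chromosome 19 sit in a cluster that spans 521.9 kb from SIGLEC9 to SIGLEC14. Of 21 genes tested there, 5 were higher, 6 lower and 10 not called, no larger a share than the 59.9% called over all genes tested. SIGLEC9 rose at one end, and SIGLEC14 and the SIGLEC5 entry at the other. Between them CD33, SIGLEC22P, SIGLEC10 with its antisense transcripts and NKG7, a cytotoxic granule gene, fell, while ETFB (0.34, adjusted p = 0.0106) and AC008750.8 (0.37, adjusted p = 0.0113) were higher. ETFB (chr19:51345169-51366388) and AC008750.8 (chr19:51350373-51368099) overlap in position, and the part of shared reads in their values was not tested. NKG7 had a log2 fold change of -1.37 (adjusted p = 1.89e-06). On chromosome 12, CLEC12A and CLEC7A lie at the ends of a stretch of 178.9 kb with 5 tested genes, where CLEC1B, CLEC12B and AC024224.2 between them were not called and gave 0.05, 0.01 and -0.09.

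**Figure D3:**
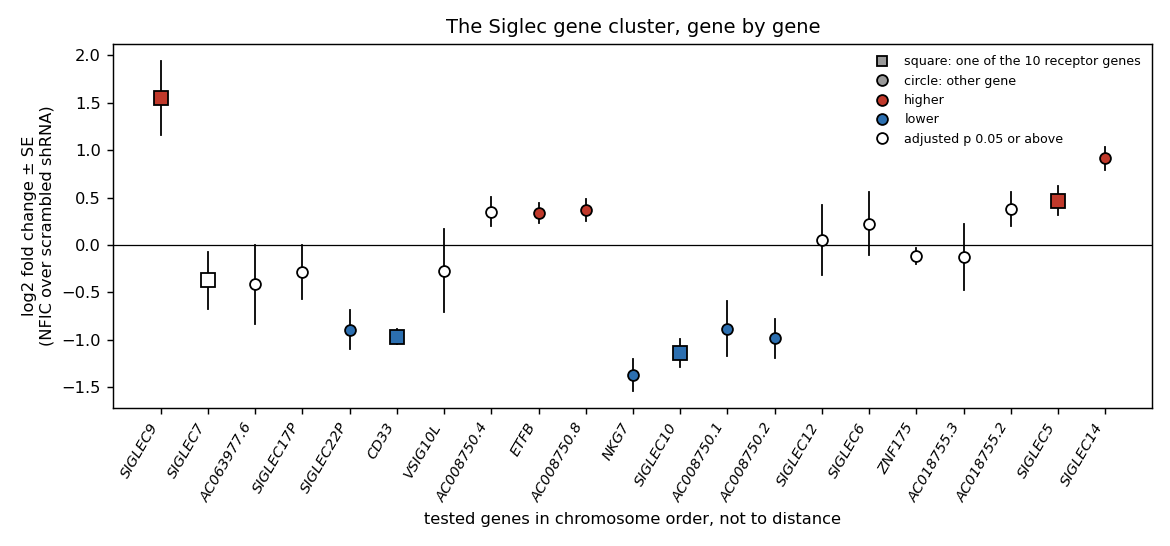
Log2 fold change (± SE) of the 21 tested genes of the chromosome 19 Siglec cluster, in chromosome order and not to distance. Squares are receptors among the 10 and circles are other genes, with red higher, blue lower and white not called. SIGLEC9, SIGLEC5 and SIGLEC14 at the ends are higher, as are, between them, ETFB and AC008750.8, whose spans overlap. CD33, NKG7 and SIGLEC10 are among those lower.

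Of 9 further Siglecs, 4 were tested and SIGLEC14 alone was called. Of 22 further C-type lectin receptors, 20 were in the table and 9 were tested, with 1 higher and 4 lower. Over all genes tested 29.6% were higher, 30.3% lower and 59.9% called in either direction. LY75 (DEC-205), an endocytic receptor, fell from 176 ± 3.01 to 85.8 ± 8.53 CPM (-1.03, adjusted p = 5.50e-10). MRC2 (Endo180), a collagen receptor, gave -0.79 (adjusted p = 2.51e-08), CD302 gave -0.58 (adjusted p = 1.33e-06). CD209 (DC-SIGN) gave -0.81 (adjusted p = 0.00741) and was not called without scrambled replicate 1 (-0.64, adjusted p = 0.0503). The higher one was COLEC12, a scavenger receptor at 0.583 CPM in control cells (0.96, adjusted p = 0.0161), named after its value was seen. It reached the filter cutoff in 2 of 3 scrambled samples and, like CLEC7A, entered through the NFIC shRNA samples. Its call did not hold with DESeq2 or without scrambled replicate 1 or NFIC shRNA replicate 1. The median of the 9 was -0.41, against -0.011 for all genes tested.

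Transcripts of the proteins that carry the signals of these receptors were counted next. Of 14 genes, 9 were higher, 2 lower and 3 not called, with a median log2 fold change of 0.40, beside 29.6% higher, 30.3% lower and a median of -0.011 over all genes tested. The kinases LYN and SYK rose most, by 0.75 (SE 0.054, adjusted p = 3.33e-09) and 0.61 (SE 0.047, adjusted p = 8.88e-09). Among the adaptors that pair with activating receptors, FCER1G gave 0.44 (adjusted p = 1.20e-05), TYROBP, which encodes DAP12, gave 0.40 (adjusted p = 6.49e-06) and HCST, which encodes DAP10, gave 0.39 (adjusted p = 6.01e-04). VAV1, a guanine nucleotide exchange factor, gave 0.50 (adjusted p = 3.42e-07).

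The phosphatases that bind an ITIM did not move together. PTPN6 (SHP-1) rose from 245 ± 25.1 to 341 ± 9.55 CPM (0.48, adjusted p = 6.66e-06), PTPN11 (SHP-2) was at 170 ± 1.72 against 170 ± 1.28 CPM, and INPP5D (SHIP1) gave 0.098 (adjusted p = 0.0943). CARD9, the adaptor by which dectin-1 signals reach NF-kB, was lower (-0.26, adjusted p = 0.00330), as was its partner MALT1 (-0.27, adjusted p = 0.0123), which was not called without scrambled replicate 1.

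Of 20 genes for enzymes and transporters that make or remove the sialic acid ligands of Siglecs, 19 were tested. Of these 6 were higher, 6 lower and 7 not called, with a median of 0.058, which is near the shares over all genes tested (29.6% higher and 30.3% lower). ST6GALNAC3 gave 0.97 (adjusted p = 2.71e-05) and ST8SIA4, which makes polysialic acid, gave 0.60 (adjusted p = 3.44e-07). NANP, a phosphatase of sialic acid synthesis, gave -0.86 (adjusted p = 6.76e-06), ST6GALNAC4 gave -0.62 (adjusted p = 0.00166), and ST3GAL4 and ST6GAL1, which add terminal sialic acid in different linkages, gave -0.58 (adjusted p = 1.34e-05) and -0.55 (adjusted p = 1.01e-06). The count of higher genes fell to 3 without scrambled replicate 1 or scrambled replicate 3, and to 3 with upper-quartile scaling. It was 4 with DESeq2, with no filter on low counts and with at least 10 counts in every sample. It was also 4 with a replicate block and without NFIC shRNA replicate 1, and 7 with total counts.

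**Figure D4:**
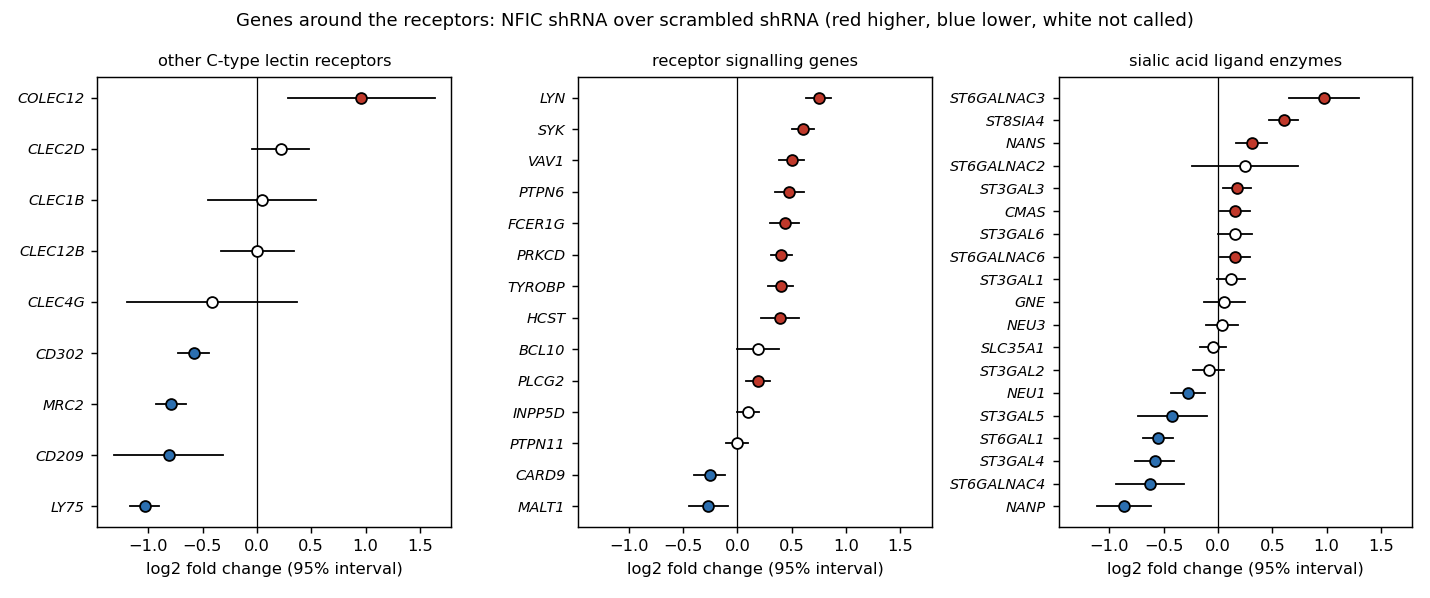
Log2 fold change (NFIC over scrambled shRNA) with its 95% interval for the tested genes of 3 lists, namely further C-type lectin receptors, receptor signalling genes and enzymes of sialic acid ligands. Red is higher, blue lower and white not called, with 9 of 14 signalling genes red and 4 of 9 lectin receptors blue. Over all genes tested 29.6% were higher and 30.3% lower.

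The transcripts whose pattern over the 6 samples was most like that of SIGLEC9, by distance between centred log2 CPM profiles, were NUTM2D (0.519), H4C8 (0.604) and OPRM1 (0.606). Their log2 fold changes were 1.30, 1.55 and 1.23. Those most like SIGLEC1 were TMEM176B (0.198), STEAP3 (0.277) and PRTG (0.311), with log2 fold changes of -1.85, -1.86 and -1.90. Such a distance largely follows the change between the groups, and co-expression was not tested. SIGLEC9 had at most 32 counts in a sample and SIGLEC1 at least 50.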

How the data were processed

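RNA of sorted THP-1 cells was sequenced in pairs of reads. Per the labels and the study's methods, the authors trimmed reads with Trim Galore, aligned them to GRCh38 with STAR and counted them per gene with featureCounts; tool versions and strand setting are not given in the sources used here. The deposited counts are raw counts per gene. The deposited normalized counts, a signal per gene, are the raw counts over each sample's size factor, as the authors computed them. The deposited FPKM values are those normalized counts divided by gene length in kilobases and by 1 total shared by all samples, and were used for levels between genes only. Deposited columns of the authors' own comparison (fold changes and p-values) were not used.

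Counts were tested with edgeR 4.0.16 in R 4.3.3 (quasi-likelihood test, TMM, filterByExpr with a minimum count of 10, Benjamini-Hochberg adjustment over 19182 genes), without a replicate block. Alternatives were DESeq2 1.42.0, other scalings and filters, each sample left out, a replicate block and, chosen after seeing the data, sums of overlapping genes. The script was tested on simulated data. Replicates differed by more than counting noise, so none was counted as a duplicate. Positions and overlaps are from GENCODE v44, promoters from RefSeq. The 10 receptors and the other gene lists were chosen with earlier results of these data known. Named are the 10 receptors, NFIC, the phosphatases and adaptors, and from each list up to 4 called genes per direction with a mean of at least 1 CPM, by size of change. The genes named for their likeness are the 3 closest to the receptor with the largest rise and to that with the largest fall. Counts of 3 stand for 0.122 to 0.146 CPM.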

Additional observations from a re-analysis of the deposited data

How the results depend on the processing

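The 10 receptors kept their direction under all alternatives, and in 121 of 130 recomputed values they kept their side of the threshold. CD33, SIGLEC1, SIGLEC10, SIGLEC9, CLEC5A and CLEC7A were called in every one that tested them. SIGLEC9 and CLEC7A entered the main test through the NFIC shRNA samples, where they were higher, and most alternatives reused that filter rule. The repeated calls of SIGLEC9 and CLEC7A are thus not separate support. With DESeq2, CLEC12A (-0.25, adjusted p = 0.0815) was not called and 0 further C-type lectin receptors were higher. With at least 10 counts in every sample, 2 receptors were higher, because SIGLEC9, CLEC7A and CLEC4A were no longer tested, and 0 further C-type lectin receptors. With upper-quartile scaling, 3 sialic acid enzymes were higher. With overlapping genes summed, CLEC4A was called (0.51). Leaving out 1 sample at a time gave -0.36 to -0.22 for CLEC12A, 0.33 to 0.55 for SIGLEC5 and 0.57 to 1.11 for CLEC4A, 3 to 5 receptors higher and 3 to 4 lower, 0 to 1 further C-type lectin receptors higher and 3 to 4 lower, 1 to 2 signalling genes lower, and 3 to 6 sialic acid enzymes higher. Samples with the same replicate number did not deviate together (correlations 0.056, -0.086 and -0.045), so the numbers were not taken as pairs. With a replicate block, 10983 genes were called in place of 11486, 4 receptors were higher and 4 lower, and no receptor's call changed. Depth limits SIGLEC9, CLEC4A, CLEC7A and CLEC5A, which had at most 16 counts in a scrambled sample.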

Other observations

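Several lectin genes were too low to be tested. MRC1, the macrophage mannose receptor, had 0, 1 and 2 counts with scrambled and 7, 7 and 2 with NFIC shRNA, with overlap between the groups. SIGLEC16, listed in the table as a transcribed pseudogene, had 7, 3 and 8 counts against 6, 11 and 11. CLEC4E (mincle), the receptor for mycobacterial cord factor, had 2, 0 and 1 counts against 0, 2 and 0, so that no difference was detectable at this depth. These genes were named after their values were seen.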
